A study of Homo sapiens with 12 samples.

Results

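The genes described are 10 well-known transcriptional targets of the tumour suppressor p53, namely CDKN1A (the gene of p21), SESN1, MDM2, TP53INP1, FAS, TNFRSF10B, BBC3, BAX, ZMAT3 and GDF15. They were taken by symbol from 43481 genes, and all 10 were among the 15263 genes that passed the filter on low counts. The rule that picks them uses gene names and no measured value, but the 10 genes were chosen with earlier results of these data known. Counts of them set against all genes are therefore description and no independent test. The cells were RPE-1, an established human line from retinal pigment epithelium made immortal with telomerase, and every library came from cells first deprived of fetal calf serum (FCS) and glucose for 24 h. In 3 groups the deprived cells were then stimulated for 4 h in medium with 10% FCS and glucose at 5 g/l. The DMA group had 100 µM dimethyl amiloride (DMA) added, a blocker of Na+/H+ exchange at the plasma membrane. The C646 group had 10 µM C646 added, which inhibits the acetyltransferases p300 and CBP. The solvent group had the solvent DMSO alone. The starved group was taken at the end of the deprivation. Each of the 4 groups has 3 libraries, numbered 1 to 3 in the labels, which do not state whether the numbers stand for separate cultures, so p-values measure only the spread between these samples. The series concerns cell cycle progression and its dependence on pH, and the comparisons ask what each inhibitor does to stimulated cells and what stimulation does to starved cells.

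p53 is a transcription factor that is held at a low level by MDM2, a ubiquitin ligase that marks it for degradation. Stress signals free p53 from MDM2, and p53 then binds DNA as a tetramer and switches on genes that stop the cell cycle, repair DNA, adjust metabolism or start cell death. MDM2 is itself a target, which closes a negative feedback loop. The acetyltransferases p300 and CBP acetylate p53 and act as its coactivators. Several of the 10 genes also answer to other inputs. CDKN1A can be induced by growth factor signals, and GDF15, BBC3 and TNFRSF10B can be induced by the stress factors ATF4 and CHOP (the product of DDIT3).

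The libraries held 14910516 to 28968510 expected counts, and 3 reads correspond to 0.105 to 0.203 CPM, the count scaled to library size, a limit that covers counting error only. Of 9 markers of retinal pigment epithelium, RPE65, RLBP1 and TYR were at or near 0 (at most 0.293 CPM). BEST1 (0.625 to 3.92 CPM), PMEL (0.402 to 0.822 CPM) and SERPINF1 (0 to 1.07 CPM) were low. MITF (17.3 to 55.4 CPM) and the keratins KRT8 (219.6 to 557 CPM) and KRT18 (366.8 to 685 CPM) were present. KRT18 is uncertain, since 28.1% of its 31-base stretches are shared with other genes. The 9 markers summed to 885 to 1280 CPM in the DMA libraries, 650 to 921 CPM in the C646 libraries, 813 to 1010 CPM in the solvent libraries and 641 to 922 CPM in the starved libraries. KRT8 and KRT18 made up most of each sum, so the sums alone do not identify the cell type. The 7 markers of other cell types summed to 2.23 to 3.31 CPM in the DMA libraries, 4.20 to 11.1 CPM in the C646 libraries, 3.52 to 7.87 CPM in the solvent libraries and 4.20 to 9.11 CPM in the starved libraries, and MYOD1 was at 0 in 12 of 12 libraries. The part of these sums in the results was not tested. These are bulk libraries, so fewer cells that express a gene and less RNA per cell cannot be told apart. The numbers of genes called with DMA and C646 against solvent rest on single libraries: 267 and 185 with all libraries, 8 and 24 without solvent library 1, and 1 and 122 without DMA library 2. Each call below is therefore also given without the libraries that end it.

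The sequences shown here are the closest matches to the p53 consensus in the promoter windows of the 10 genes, because this is the element through which p53 acts on its targets. The consensus consists of 2 half-sites of 10 bases with no spacer between them, and it reads the same on both strands. RefSeq promoters (GRCh38.p14, 250 bases before to 50 after each start) were found for 8 of the 10 genes, in 16 windows. A match keeps the C and G of both CNNG cores, shown in capitals, and has at most 3 mismatches at the other 16 positions.
SESN1: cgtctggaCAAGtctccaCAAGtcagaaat
FAS: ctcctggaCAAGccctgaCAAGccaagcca
MDM2: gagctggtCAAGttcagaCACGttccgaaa
GDF15: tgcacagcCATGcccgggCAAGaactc
The SESN1 sequence is chr6:109009013-109009042 on the minus strand, in an intron of SESN1-202 and SESN1-204, and has 3 mismatches. It lies 49 bases before a RefSeq start, next to the annotated start of SESN1-201 (109008988), which held at most 0.851 TPM in any library. The main transcript, SESN1-202, starts upstream of the site, at 109009555. The FAS sequence is chr10:88991304-88991333 on the plus strand, has 2 mismatches and overlaps exons of FAS-201 and FAS-207 and of the antisense gene ACTA2. The MDM2 sequence is chr12:68808918-68808947 on the plus strand and has 2 mismatches. It lies in the intron that separates the upstream starts of MDM2 from the downstream ones, 94 bases before the RefSeq start. The GDF15 sequence is chr19:18386181-18386207 on the plus strand, lies in an exon of 3 GDF15 transcripts and has 3 mismatches.

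At this limit 4 of the 8 genes held a match, against 373 of 27305 genes in the table (1.37%), and 392 of 35116 windows (1.12%). With at most 2 mismatches 2 of the 8 held one (MDM2 and FAS), against 0.359% of genes, and with at most 4 mismatches 5 did, against 4.92%. ZMAT3 was the gene added at 4 mismatches. CDKN1A was not among the genes with a match at any of these limits. The 8 genes were listed as known p53 targets and have more windows per gene than the genes in the table, so these shares are description and no test. The windows are short, and a gene without a match is one without these letters in 300 bases. The intronic MDM2 promoter is printed in full up to the first annotated exon base, because the transcripts that start from it are described further on. It is chr12:68808767-68809001 on the plus strand, 235 bases, with the same 2 cores in capitals. Capitals mark only the match that keeps every core base, so the other letters may hold p53 elements that lack one.
MDM2 intronic promoter: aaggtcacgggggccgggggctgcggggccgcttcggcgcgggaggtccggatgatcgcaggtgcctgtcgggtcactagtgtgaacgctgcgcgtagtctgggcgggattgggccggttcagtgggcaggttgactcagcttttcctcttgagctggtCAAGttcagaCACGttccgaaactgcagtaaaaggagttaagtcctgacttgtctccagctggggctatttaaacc

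With DMA, CDKN1A and TNFRSF10B rose above solvent, and with C646, CDKN1A, MDM2, FAS and TP53INP1 did. All 10 log2 fold changes were above 0 with either inhibitor, except that FAS with DMA was -0.03 without DMA library 1 and -0.05 with the replicate block and without solvent library 1. In the DMA group 2 of the 10 genes were higher than in solvent by the edgeR test (adjusted p under 0.05, Benjamini-Hochberg over all genes tested), against 0.734% of all genes. In the C646 group 4 of the 10 were higher, against 0.812% of all genes. The median log2 fold change of the 10 was 0.65 for DMA and 0.79 for C646, against 0.0071 and 0.0109 over all genes tested. Both inhibitor groups are set against the same solvent libraries. Counted by libraries that did not overlap, 5 of the 10 genes were above solvent in DMA (11.3% of all genes) and 6 in C646 (10.2% of all genes). The 5 for DMA include GDF15, for which solvent libraries 1 and 2 held 2 reads each, below the limit of 3 reads.

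**Figure D1:**
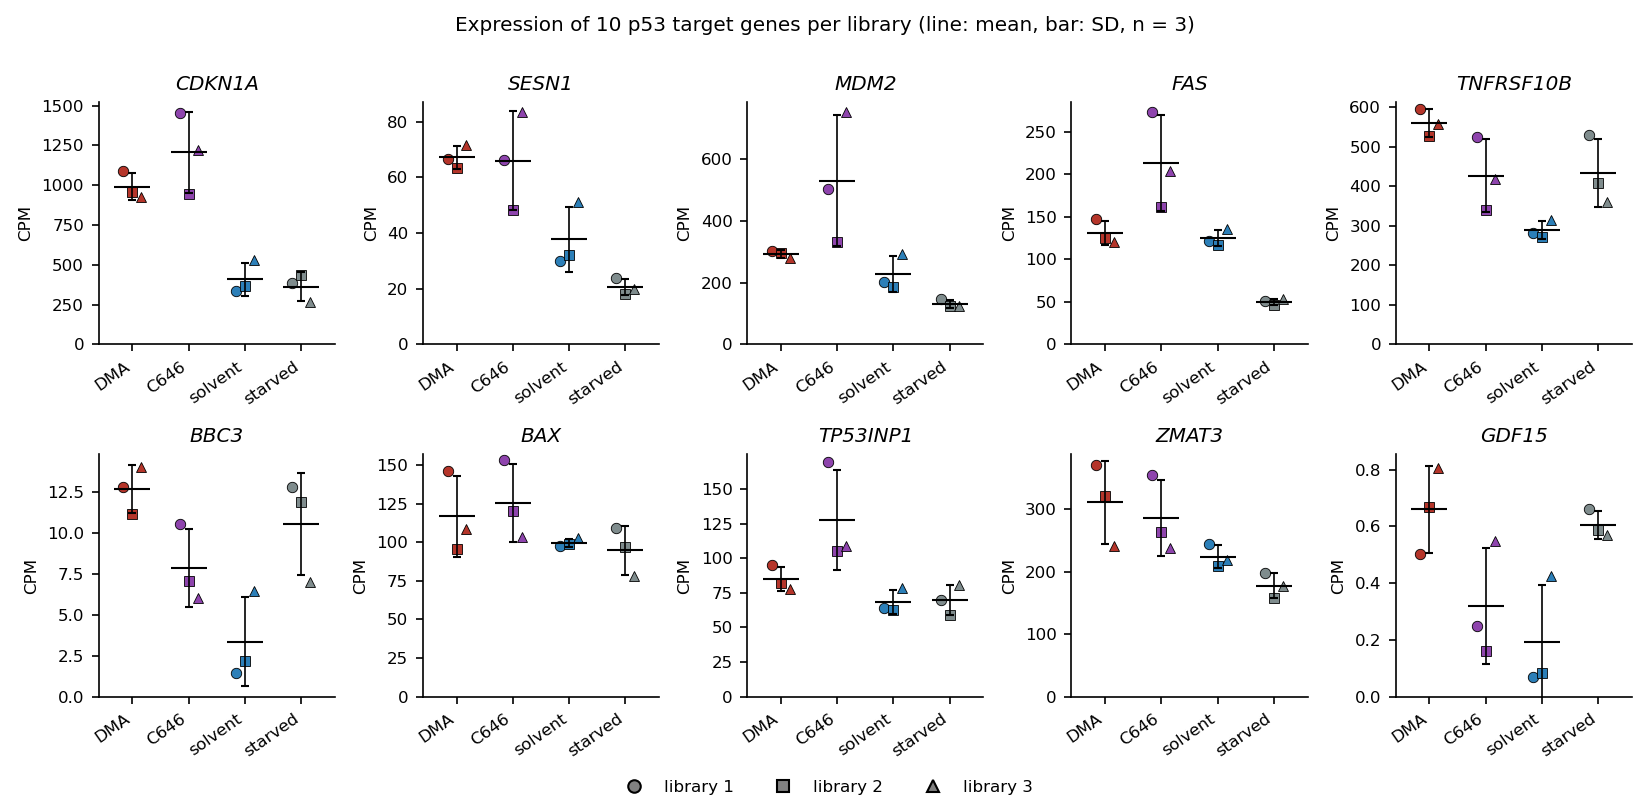
CPM of the 10 genes in each library, with DMA, C646, solvent and starved from left to right, the mean as a line and the SD as a bar (n = 3), and the library number as the marker shape. The CDKN1A libraries of the DMA and C646 groups lie at 929 CPM or above, and those of the solvent and starved groups at 528 CPM or below.

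Libraries of the same number deviated together, which was taken as pairing for every comparison except solvent with starved cells. There the lowest correlation (0.096) was under the limit set, though every same-number value was above those of other numbers (at most 0.063). The labels state no pairing, so the main calls use no block. A fit with the number as a block called more genes everywhere. With the block, 5 of the 10 genes were higher in DMA than in solvent (4.76% of all genes) and 6 of the 10 were higher in C646 (4.12% of all genes). The added genes are SESN1, BBC3 and ZMAT3 for DMA and SESN1 and TNFRSF10B for C646. With the block and without solvent library 1 these counts were 2 for DMA (SESN1 and TNFRSF10B, against 1.34% of all genes) and 3 for C646 (CDKN1A, FAS and TP53INP1, against 1.36%). In that fit BBC3 and ZMAT3 with DMA (adjusted p = 0.0924 and 0.113) and SESN1 and TNFRSF10B with C646 (0.0619 and 0.119) did not pass. Solvent library 3 held the highest solvent value for 9 of the 10 genes, all but ZMAT3. Library 1 was the highest for 7 of the 10 in each of the DMA, C646 and starved groups, and library 2 was the highest for 0 of the 10 in DMA, C646 and solvent.

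CDKN1A (chromosome 6, 36676460 to 36687339, plus strand, GRCh38) encodes p21, the inhibitor of cyclin-dependent kinases through which p53 stops the cell cycle in G1. It measured 1088, 957 and 929 CPM in the DMA libraries, 1456, 947 and 1219 CPM in the C646 libraries, 335, 364 and 528 CPM in the solvent libraries, and 387, 438 and 263 CPM in the starved libraries. Every inhibitor library was above every solvent and starved library, and the solvent and starved libraries overlapped. CDKN1A rose 2.42-fold with DMA against solvent (log2 1.28 ± 0.22 SE, adjusted p = 0.0182, edgeR). With C646 it rose 2.95-fold (1.56 ± 0.22, edgeR adjusted p = 0.00739). Between libraries of the same number the ratio of DMA to solvent was 3.25, 2.63 and 1.76, and that of C646 to solvent was 4.34, 2.60 and 2.31. The call for DMA ended without DMA library 2, solvent library 1 or solvent library 2 (edgeR adjusted p = 0.0756, 0.0888 and 0.0578), while the log2 fold change was 1.30, 1.15 and 1.20. With the block and without solvent library 1 it was 1.06 (adjusted p = 0.0527). The call for C646 held without each library in turn.

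Between DMA and C646, CDKN1A differed by a log2 of -0.28, with a 95% interval of -0.74 to 0.18 (edgeR adjusted p = 0.557). Serum and glucose alone gave a log2 of 0.17 for solvent against starved cells, with an interval of -0.29 to 0.63 (edgeR adjusted p = 0.599). That value was -0.05 without solvent library 3 and -0.01 without starved library 3. Against starved cells CDKN1A rose by a log2 of 1.45 with DMA and 1.73 with C646 (edgeR adjusted p = 0.000507 and 0.000162). In order of mean level the groups were C646, DMA, solvent and starved, and within the first pair and the last pair of that order no difference passed.

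SESN1 (chromosome 6, 108986437 to 109094819, minus strand) encodes sestrin 1, which restrains the growth kinase mTORC1. It measured 66.5, 63.4 and 71.6 CPM in the DMA libraries, 66.2, 48.2 and 83.5 CPM in the C646 libraries, 29.9, 32.0 and 51.3 CPM in the solvent libraries, and 23.8, 18.2 and 19.9 CPM in the starved libraries. The DMA libraries lay above all solvent libraries, C646 library 2 lay below solvent library 3, and the starved libraries lay below all others. The log2 fold change against solvent was 0.83 with DMA and 0.81 with C646 (edgeR adjusted p = 0.071 and 0.0857). With the block both passed, at 0.86 and 0.81 (edgeR adjusted p = 0.00861 and 0.0127), and when solvent library 1 was also left out they were 0.69 and 0.63 (adjusted p = 0.0393 and 0.0619). With no block and without solvent library 3 they were 1.12 and 1.09 (adjusted p = 0.0276 and 0.0356). DMA and C646 differed by 0.03 (interval -0.44 to 0.49). SESN1 rose by 0.87 in solvent against starved cells (edgeR adjusted p = 0.013), a call that ended without solvent library 3 (0.59, adjusted p = 0.0538) or starved library 2 (0.79, adjusted p = 0.06). Against starved cells it rose by 1.70 with DMA and by 1.68 with C646 (edgeR adjusted p = 0.000214 and 0.00025).

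MDM2 (chromosome 12, 68808176 to 68850686, plus strand) encodes the ubiquitin ligase of the feedback loop. It measured 304, 296 and 279 CPM in the DMA libraries, 505, 331 and 753 CPM in the C646 libraries, 203, 186 and 294.5 CPM in the solvent libraries, and 146, 126 and 123 CPM in the starved libraries. All C646 libraries were above all DMA, solvent and starved libraries, and they were also the most spread. MDM2 rose 2.32-fold with C646 against solvent (log2 1.22 ± 0.24, edgeR adjusted p = 0.0361), with ratios of 2.49, 1.78 and 2.56 between libraries of the same number. The call ended without C646 library 1 or 3 (adjusted p = 0.101 and 0.0763) and without solvent library 1 or 2 (0.169 and 0.0904). It also ended without DMA library 2 (0.0525) and without starved library 1, 2 or 3 (0.053, 0.052 and 0.0507), libraries outside the comparison that share its fit. The lowest of these log2 values was 0.88, without C646 library 3. No filter on low counts and a fit to the compared groups alone also ended it (adjusted p = 0.081 and 0.12), as did the block without solvent library 1 (1.10, adjusted p = 0.0699). With DMA the value against solvent was 0.36, with an interval of -0.16 to 0.89 (edgeR adjusted p = 0.448).

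The difference between DMA and C646 for MDM2 was -0.86 (edgeR adjusted p = 0.0821), and it passed with the block (-0.79, adjusted p = 0.0441, but 0.0532 when solvent library 1 was also left out) and without C646 library 2 (-1.10, adjusted p = 0.0189). In solvent against starved cells MDM2 rose by 0.79 (edgeR adjusted p = 0.032). That call ended without solvent library 3 (0.57, adjusted p = 0.126) and without starved library 1, 2 or 3 (0.88, 0.76 and 0.75, with adjusted p = 0.054, 0.0999 and 0.0863), and with no filter on low counts (0.80, adjusted p = 0.0986). MDM2 rose by 1.15 with DMA and by 2.01 with C646 against starved cells (edgeR adjusted p = 0.00441 and 0.000164).

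TP53INP1 (chromosome 8, 94925972 to 94949411, minus strand) encodes a cofactor that aids the kinases which activate p53, and also acts in autophagy. It measured 94.7, 81.9 and 78.0 CPM in the DMA libraries, 169, 105 and 109 CPM in the C646 libraries, 63.7, 62.6 and 78.3 CPM in the solvent libraries, and 69.6, 58.7 and 80.4 CPM in the starved libraries. The C646 libraries were above all others, and the remaining groups overlapped. It rose 1.87-fold with C646 against solvent (log2 0.91 ± 0.18, edgeR adjusted p = 0.0355) and by 0.88 against starved cells (adjusted p = 0.00415). The call against solvent ended without C646 library 1 (0.65, adjusted p = 0.117), solvent library 1 (0.86, 0.161), solvent library 2 (0.85, 0.0899), DMA library 2 (0.90, 0.051) or starved library 1 (0.90, 0.0564). It also ended with spike-in scaling (0.96, adjusted p = 0.26) and in a fit to the compared groups alone (0.89, adjusted p = 0.0952). With DMA the value against solvent was 0.32, with an interval of -0.08 to 0.71. The difference between DMA and C646 was -0.59 (edgeR adjusted p = 0.104, and -0.57 with adjusted p = 0.0373 with the block).

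FAS (chromosome 10, 88990582 to 89015785, plus strand) encodes the death receptor of the Fas ligand. It measured 147, 126 and 119.8 CPM in the DMA libraries, 273, 162 and 204 CPM in the C646 libraries, 122, 117 and 136 CPM in the solvent libraries, and 50.4, 46.4 and 53.2 CPM in the starved libraries. The starved libraries were the lowest and the C646 libraries the highest, with DMA and solvent overlapping between them. FAS rose 2.50-fold in solvent against starved cells (log2 1.32 ± 0.16, edgeR adjusted p = 0.000146), by 1.39 with DMA (adjusted p = 9.16e-05) and by 2.09 with C646 (adjusted p = 6.48e-06). These calls held without each library in turn.

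Against solvent, FAS rose by 0.77 with C646 (edgeR adjusted p = 0.0396), and with DMA its value was 0.07, with an interval of -0.28 to 0.41 (adjusted p = 0.869). FAS was the gene of the 10 that was lower in DMA than in C646 (1 of the 10, against 1.95% of all genes), by a log2 of -0.70 (edgeR adjusted p = 0.0348). The call for C646 against solvent ended without C646 library 1 (0.55, adjusted p = 0.133), C646 library 3 (0.80, 0.0737), solvent library 1 (0.75, 0.164), solvent library 2 (0.72, 0.0947), solvent library 3 (0.83, 0.0607), DMA library 2 (0.77, 0.0557) or starved library 1, 2 or 3 (adjusted p = 0.059, 0.0553 and 0.0508). The call for DMA against C646 ended without DMA library 2 (-0.67, 0.117), DMA library 3 (-0.65, 0.12), C646 library 1 (-0.48, 0.132), C646 library 3 (-0.74, 0.0632), solvent library 2 (0.0514) or starved library 1 (0.052). Spike-in scaling and a fit to the compared groups alone ended both calls (adjusted p = 0.535 and 0.116 for C646 against solvent, and 1 and 0.118 for DMA against C646).

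TNFRSF10B (chromosome 8, 23020133 to 23069179, minus strand) encodes DR5, a death receptor of the ligand TRAIL. It measured 597, 527 and 558 CPM in the DMA libraries, 524, 339 and 419 CPM in the C646 libraries, 282, 273 and 314 CPM in the solvent libraries, and 530.1, 409 and 362 CPM in the starved libraries. The solvent libraries were the lowest of all, so that DMA, C646 and starved cells each lay above them with no overlap. TNFRSF10B rose 1.93-fold with DMA against solvent (log2 0.95 ± 0.16, edgeR adjusted p = 0.0182), with ratios of 2.12, 1.93 and 1.77 between libraries of the same number. That call ended without DMA library 2 (0.99, adjusted p = 0.0756), solvent library 1 (0.93, 0.0888) or solvent library 2 (0.91, 0.0578), and with spike-in scaling (1.16, 0.0869). For C646 the value was 0.56 (adjusted p = 0.104, 0.54 with adjusted p = 0.0218 with the block, and 0.40 with adjusted p = 0.119 when solvent library 1 was also left out).

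TNFRSF10B fell by 0.58 in solvent against starved cells (edgeR adjusted p = 0.0199). That call ended without solvent library 1 (-0.56, adjusted p = 0.0621), solvent library 2 (-0.54, 0.0704) or starved library 1 (-0.41, 0.1), and the sign turned with spike-in scaling (0.04). Against starved cells the values were 0.37 with DMA (adjusted p = 0.111, 0.38 with adjusted p = 0.0281 with the block, and 1.20 with adjusted p = 0.00307 with spike-in scaling) and -0.02 with C646 (interval -0.37 to 0.33, and 0.68 with spike-in scaling). Without starved library 1 the value for DMA passed (0.54, adjusted p = 0.0368).

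BBC3 (chromosome 19, 47220822 to 47232766, minus strand) encodes PUMA, a trigger of mitochondrial cell death. It measured 12.8, 11.2 and 14.1 CPM in the DMA libraries, 10.6, 7.05 and 6.03 CPM in the C646 libraries, 1.44, 2.17 and 6.46 CPM in the solvent libraries, and 12.8, 11.9 and 6.98 CPM in the starved libraries. Solvent library 3 held 152 reads and solvent libraries 1 and 2 held 41 and 52, and that library lay within the range of the C646 group. BBC3 fell by a log2 of 1.67 in solvent against starved cells (edgeR adjusted p = 0.0169). That call ended without solvent library 1 (-1.30, adjusted p = 0.0518), solvent library 2 (-1.44, 0.0665), starved library 1 (-1.51, 0.0581) or starved library 2 (-1.58, 0.0555), and the value was -2.56 without solvent library 3. With spike-in scaling it was -0.98 (adjusted p = 0.064), and with no filter on low counts -1.66 (adjusted p = 0.062).

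The value of BBC3 in DMA against solvent, a log2 of 1.93 ± 0.45, missed the threshold (edgeR adjusted p = 0.0511) and passed with the block (1.96, adjusted p = 0.0374), without solvent library 3 (2.82, adjusted p = 0.011) and without starved library 3 (adjusted p = 0.0477). With the block and without solvent library 1 it was 1.47 (adjusted p = 0.0924). With DESeq2 it was 1.93 (adjusted p = 0.000562), and with spike-in scaling 2.09 (edgeR adjusted p = 0.000787). Every DMA library lay above every solvent library, and the ratios by number were 8.89, 5.16 and 2.18. With C646 the value was 1.24 (edgeR adjusted p = 0.183, and 2.13 with adjusted p = 0.0269 without solvent library 3). Against starved cells BBC3 measured 0.26 with DMA and -0.43 with C646, with intervals of -0.67 to 1.18 and -1.36 to 0.50, and with spike-in scaling these values were 1.11 (adjusted p = 0.0194) and 0.26 (adjusted p = 0.604).

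BAX (chromosome 19, 48954815 to 48961798, plus strand) encodes the pore former of the mitochondrial outer membrane on which PUMA acts. It measured 146, 95.6 and 109 CPM in the DMA libraries, 153, 120.3 and 103 CPM in the C646 libraries, 97.4, 98.8 and 103 CPM in the solvent libraries, and 109, 97.0 and 78.2 CPM in the starved libraries. All 4 groups lay close together, and with TMM scaling BAX passed in no comparison with edgeR without the block, or with DESeq2 (1 of 6 had an unadjusted edgeR p under 0.05). Its largest log2 value in these edgeR tests was 0.41 for C646 against starved cells (adjusted p = 0.112, and 0.40 with adjusted p = 0.0269 with the block). With spike-in scaling it passed against starved cells with both inhibitors, at 1.10 with DMA and 1.11 with C646 (adjusted p = 0.00535 and 0.00681). With the block and without solvent library 1 it passed with DMA as well (0.29, adjusted p = 0.0416). Against solvent it was 0.23 with DMA (interval -0.15 to 0.61) and 0.33 with C646 (interval -0.05 to 0.71).

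ZMAT3 (chromosome 3, 179017223 to 179072279, minus strand) encodes a zinc finger protein that binds RNA and affects splicing and mRNA stability. It measured 371, 320.5 and 240.5 CPM in the DMA libraries, 354, 264 and 239 CPM in the C646 libraries, 244, 208 and 219 CPM in the solvent libraries, and 198.5, 157 and 177 CPM in the starved libraries. The starved libraries were the lowest, and each inhibitor group overlapped solvent through its library 3. ZMAT3 rose by 0.81 with DMA and by 0.68 with C646 against starved cells (edgeR adjusted p = 0.00435 and 0.0121), and the call for C646 ended without C646 library 1 (0.50, adjusted p = 0.063) or starved library 2 (0.60, 0.0568). Against solvent the values were 0.47 with DMA (adjusted p = 0.156, 0.46 with adjusted p = 0.0241 with the block, and 0.39 with adjusted p = 0.113 when solvent library 1 was also left out) and 0.35 with C646 (adjusted p = 0.325). In solvent against starved cells the value of ZMAT3 was 0.33, with an interval of -0.04 to 0.70, and it did not pass (edgeR adjusted p = 0.185). It passed with the block (0.34, adjusted p = 0.0337) and with spike-in scaling (0.91, adjusted p = 0.0358), which moved the median of all genes to 0.60.

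GDF15 (chromosome 19, 18374731 to 18389176, plus strand) encodes a secreted stress hormone of the TGF-beta family. It was nearly silent, with 0.502, 0.670 and 0.808 CPM in the DMA libraries, 0.249, 0.161 and 0.548 CPM in the C646 libraries, 0.0702, 0.0833 and 0.425 CPM in the solvent libraries, and 0.660, 0.586 and 0.570 CPM in the starved libraries. All DMA libraries lay above all solvent libraries, but solvent libraries 1 and 2 held 2 reads each, below the limit of 3 reads. With all libraries and without the block, GDF15 passed in no comparison with edgeR, and its intervals were the widest of the 10 genes (for DMA against solvent 0.37 to 3.19, edgeR adjusted p = 0.16). For solvent against starved cells the value was -1.66 (edgeR adjusted p = 0.0854), and it passed with the block (-1.86, adjusted p = 0.023). It also passed without solvent library 3 (adjusted p = 0.0144), where the solvent libraries left are both below that limit.

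**Figure D2:**
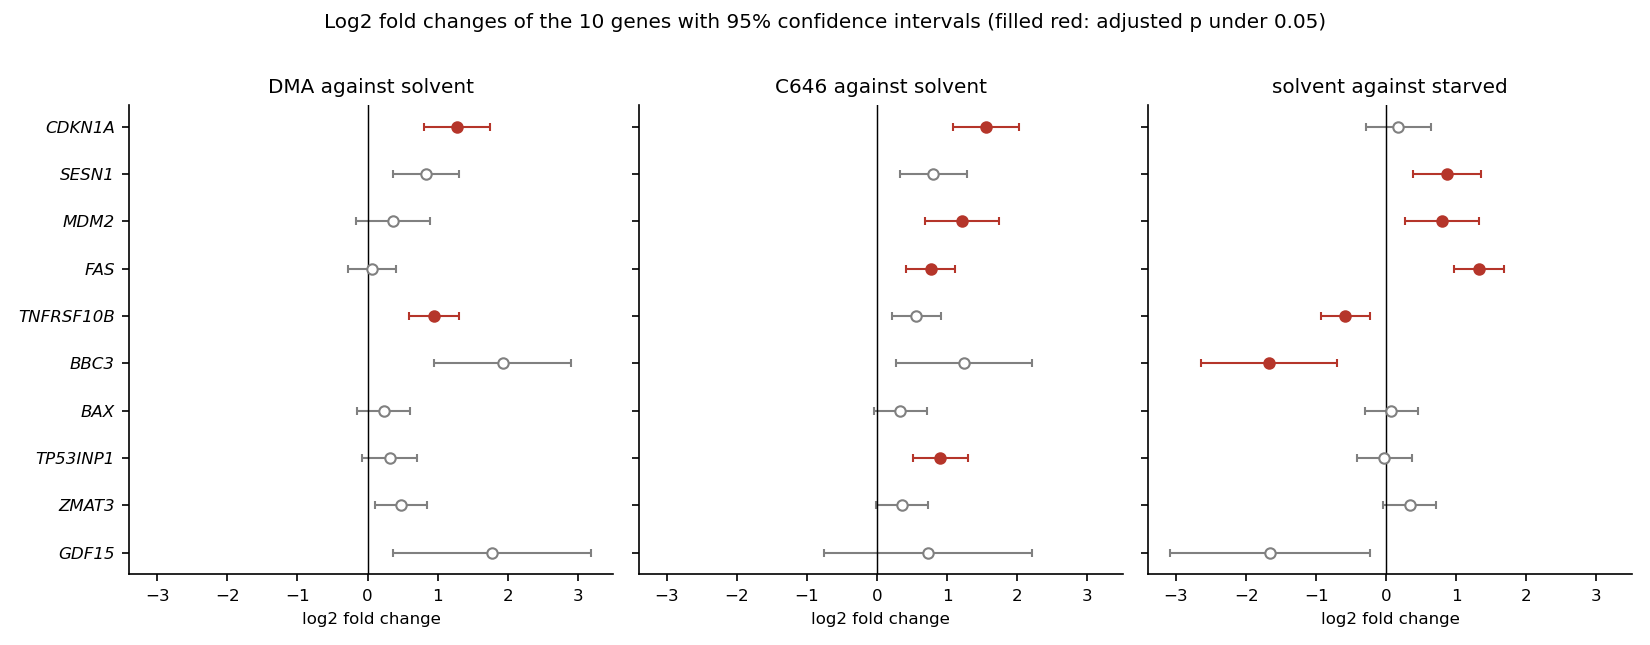
Log2 fold changes of the 10 genes with 95% intervals for DMA against solvent, C646 against solvent and solvent against starved, with filled red points for calls by edgeR. The points for both inhibitors lie to the right of 0 for all 10 genes, while solvent against starved has 3 calls above 0 (SESN1, MDM2 and FAS) and 2 below 0 (TNFRSF10B and BBC3).

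With serum and glucose, genes of the 10 changed in both directions. In solvent against starved cells 3 of the 10 were higher (12.6% of all genes) and 2 were lower (11.7% of all genes), and the median log2 value was 0.12. The genes that rose were SESN1, MDM2 and FAS. Those that fell were TNFRSF10B, whose sign turned with spike-in scaling, and BBC3. Against starved cells 5 of the 10 were higher with DMA (13.9% of all genes) and 6 with C646 (12.9% of all genes). CDKN1A, SESN1, MDM2, FAS and ZMAT3 were called with both inhibitors, TP53INP1 was called with C646, and all comparisons with starved cells share the starved libraries. Scaling to the spike-in controls moved the median log2 value of all genes to 0.60, 0.81 and 0.73 for solvent, DMA and C646 against starved cells, and to 0.23 and 0.13 for DMA and C646 against solvent, so the values are relative to the other genes. With that scaling 9 of the 10 were higher in DMA than in starved cells, against 42.2% of all genes, and 7 of the 10 in C646, against 33.4%. The added genes were TNFRSF10B, BBC3, BAX and TP53INP1 (1.08, adjusted p = 0.00634) for DMA, and BAX for C646.

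Between the inhibitors the 10 genes were compared at 1 dose of each, which differ (100 µM DMA and 10 µM C646). All DMA libraries lay above all C646 libraries for TNFRSF10B and BBC3 (2 of the 10, against 10.5% of all genes), and all lay below them for MDM2, FAS and TP53INP1 (3 of the 10, against 11.1% of all genes). FAS passed the test, and with the block MDM2 and TP53INP1 passed as well (3 of the 10 lower, against 5.85% of all genes). With the block and without solvent library 1, FAS and TP53INP1 passed as lower (2 of the 10, against 6.13% of all genes) and MDM2 did not. For TNFRSF10B the difference was 0.39 (interval 0.04 to 0.74, edgeR adjusted p = 0.233), and it passed in that last fit (0.41, adjusted p = 0.0283). For BBC3 it was 0.68 (interval -0.25 to 1.61, adjusted p = 0.466).

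In TPM, the submitters' transcript estimates scaled for length and depth, CDKN1A was the most abundant of the 10 in the mean over all libraries, with 658 ± 67.6 TPM in DMA, 814 ± 163 TPM in C646, 275 ± 65.0 TPM in solvent and 239.7 ± 72.1 TPM in starved cells (SD, n = 3). BAX followed, at 294 ± 124 TPM in DMA, 342 ± 89.8 TPM in C646, 302 ± 33.0 TPM in solvent and 293.5 ± 62.8 TPM in starved cells, and had the highest mean of the 10 in solvent and starved cells. In solvent BAX and CDKN1A differed by less than the larger SD of the pair, and in solvent library 3 CDKN1A was above BAX (349.4 and 264.5 TPM). In starved cells the order was BAX, CDKN1A, TNFRSF10B, MDM2, FAS, ZMAT3, TP53INP1, BBC3, SESN1 and GDF15 by mean TPM. In that order BAX and CDKN1A, CDKN1A and TNFRSF10B, and BBC3 and SESN1 differed by less than the larger SD of the pair. GDF15 was the lowest in each group, at 1.29, 0.518, 0.310 and 0.992 TPM in DMA, C646, solvent and starved cells.

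CDKN1A, MDM2 and SESN1 have more than 1 annotated start region, and the deposited transcript values were summed by start. For CDKN1A, 3 transcripts start upstream (36676460 to 36676528) and 5 start downstream (36678658 to 36678771). The downstream starts summed to 499, 293 and 324 TPM in the DMA libraries, 488, 389.5 and 299 TPM in the C646 libraries, 31.5, 83.3 and 158 TPM in the solvent libraries, and 116, 157 and 40.0 TPM in the starved libraries. The upstream starts summed to 233, 349 and 276 TPM with DMA, 482, 256 and 528 TPM with C646, 198, 163 and 191 TPM with solvent, and 146, 141 and 119 TPM in starved cells. Neither inhibitor group overlapped solvent in either region, and the estimates of the downstream region were the more spread in solvent and starved cells. These splits come from the submitters' transcript estimates, which share reads between overlapping transcripts, and they were not tested.

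For MDM2, the 22 transcripts that start at 68809002 to 68809227, just after the intronic promoter printed above, summed to 65.3, 79.8 and 35.1 TPM in the DMA libraries, 88.5, 73.0 and 177 TPM in the C646 libraries, 28.2, 39.2 and 51.4 TPM in the solvent libraries, and 29.6, 26.7 and 20.8 TPM in the starved libraries. The 7 transcripts that start upstream, at 68808176 to 68808464, summed to 29.3, 35.3 and 25.8 TPM with DMA, 51.2, 44.6 and 67.7 TPM with C646, 17.9, 18.0 and 30.1 TPM with solvent, and 14.9, 17.0 and 15.1 TPM in starved cells. The C646 libraries were above all solvent and starved libraries in both regions. The DMA and solvent libraries overlapped in both. A short transcript that starts near the 3′ end held a further 51.8 to 61.7 TPM with DMA, 51.9 to 146.6 TPM with C646, 37.2 to 74.9 TPM with solvent and 19.2 to 26.2 TPM in starved cells.

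For SESN1, the transcript with the proximal start (109009555) held 28.1, 25.3 and 30.4 TPM in the DMA libraries, 26.5, 19.1 and 33.5 TPM in the C646 libraries, 12.2, 11.6 and 19.7 TPM in the solvent libraries, and 9.25, 7.27 and 7.0 TPM in the starved libraries. It was the main transcript of the gene in every library. The distal start (109094819) held 2.81 to 4.05 TPM with DMA, 3.56 to 4.74 TPM with C646, 2.22 to 3.39 TPM with solvent and 1.27 to 1.88 TPM in starved cells.

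**Figure D3:**
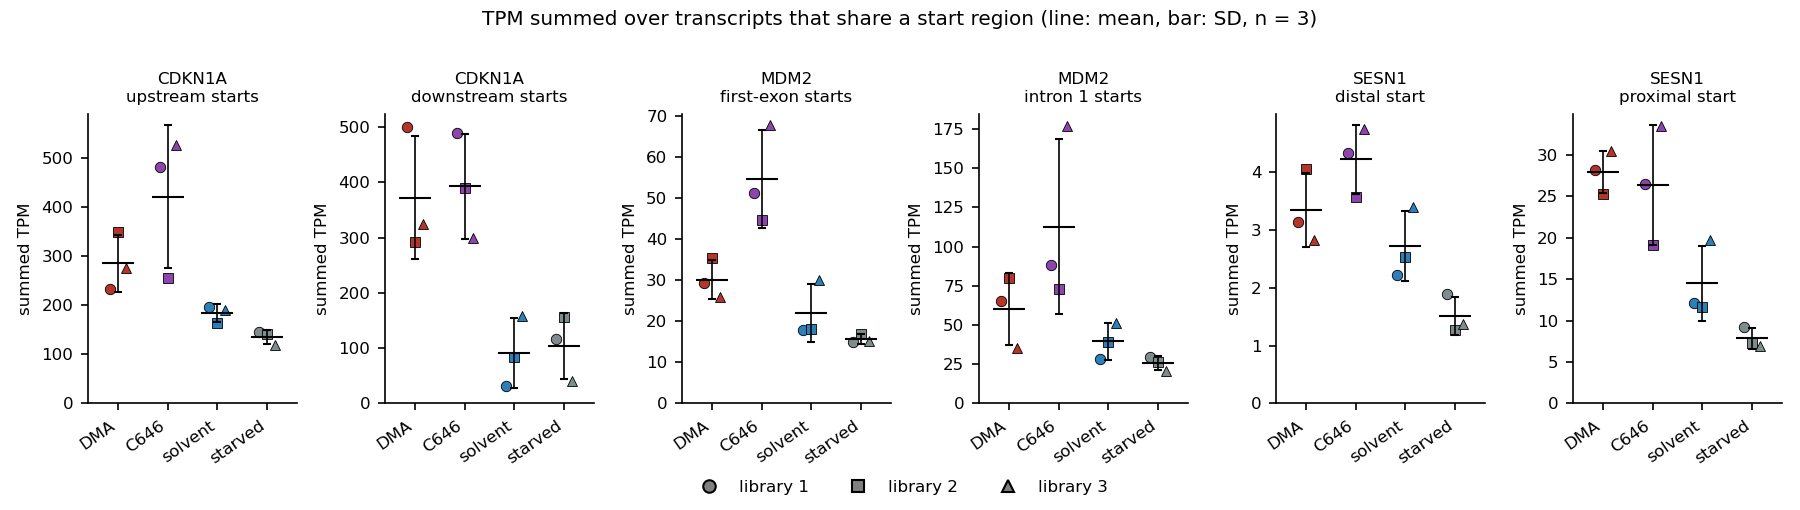
TPM summed over transcripts that share a start region, for 2 regions each of CDKN1A, MDM2 and SESN1, with DMA, C646, solvent and starved from left to right, the mean as a line and the SD as a bar (n = 3). At the downstream CDKN1A starts the DMA and C646 libraries lie at 292.6 TPM or above and the solvent and starved libraries at 158 TPM or below.

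A longer list of 49 other p53 targets placed the 10 genes beside the rest of the pathway, and 45 of them were tested. In DMA against solvent, 35 of the 45 had a log2 value above 0 (median 0.24, against 0.0071 over all genes tested). Of the 45, 4 were called, all higher, against 0.734% of all genes. These were 2 of 8 genes of arrest and growth control and 2 of 14 genes of cell death. BTG2, which slows cell cycle entry, rose by 1.19 (edgeR adjusted p = 0.0226), AEN, a nuclease of apoptosis, by 0.96 (0.0182), PLK3, a stress kinase, by 0.95 (0.019), and EDA2R, a receptor of the tumour necrosis factor family, by 0.83 (0.0351). Leaving out DMA library 2, solvent library 1 or solvent library 2 ended each of these calls (adjusted p = 0.0573 to 0.151). EDA2R was also lost without DMA library 1 (0.0692), solvent library 3 (0.0744), C646 library 2 (0.0554) or starved library 2 (0.0542). Spike-in scaling ended the calls of AEN, PLK3 and EDA2R (0.0727, 0.103 and 0.192), and a fit to the compared groups alone those of PLK3 and EDA2R (0.0644 and 0.0763). In C646 against solvent, 42 of the 45 were above 0 (median 0.37, against 0.0109 over all genes tested). There 2 were called, all higher, against 0.812% of all genes. BTG2 rose by 1.16 (edgeR adjusted p = 0.0268) and TOB1, a relative of BTG2, by 0.75 (0.0237).

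Those 2 calls with C646 ended without C646 library 1 (adjusted p = 0.113 for BTG2 and 0.102 for TOB1), solvent library 1 (0.139 and 0.122) or solvent library 3 (0.0593 and 0.0587), and BTG2 also without C646 library 3 (0.0741) or solvent library 2 (0.0541). Both also ended with spike-in scaling (0.0718 and 0.599) and in a fit to the compared groups alone (0.051 and 0.0769). With the block, 12 of the 45 were called higher (4.76% of all genes) and 1 lower in DMA against solvent. In C646 against solvent 9 were higher (4.12% of all genes) and 1 lower. Without solvent library 1 as well these numbers were 8 and 1 for DMA and 2 and 0 for C646, against 1.34% and 1.36% of all genes higher. BTG2 was not among those for C646 (0.96, adjusted p = 0.0594). BTG2 measured 46.8, 49.5 and 41.1 CPM in DMA, 51.4, 33.4 and 50.3 CPM in C646, 16.6, 22.7 and 20.9 CPM in solvent, and 11.2, 9.96 and 5.84 CPM in starved cells. Every inhibitor library was above every solvent library, and every solvent library was above every starved library. PPM1D, the phosphatase that turns p53 signalling off, measured 0.60 with DMA and 0.59 with C646 against solvent (edgeR adjusted p = 0.0524 and 0.0649). With the block both passed (0.60 with adjusted p = 0.0168, and 0.59 with adjusted p = 0.0208), but not when solvent library 1 was also left out (adjusted p = 0.0561 and 0.0753).

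**Figure D4:**
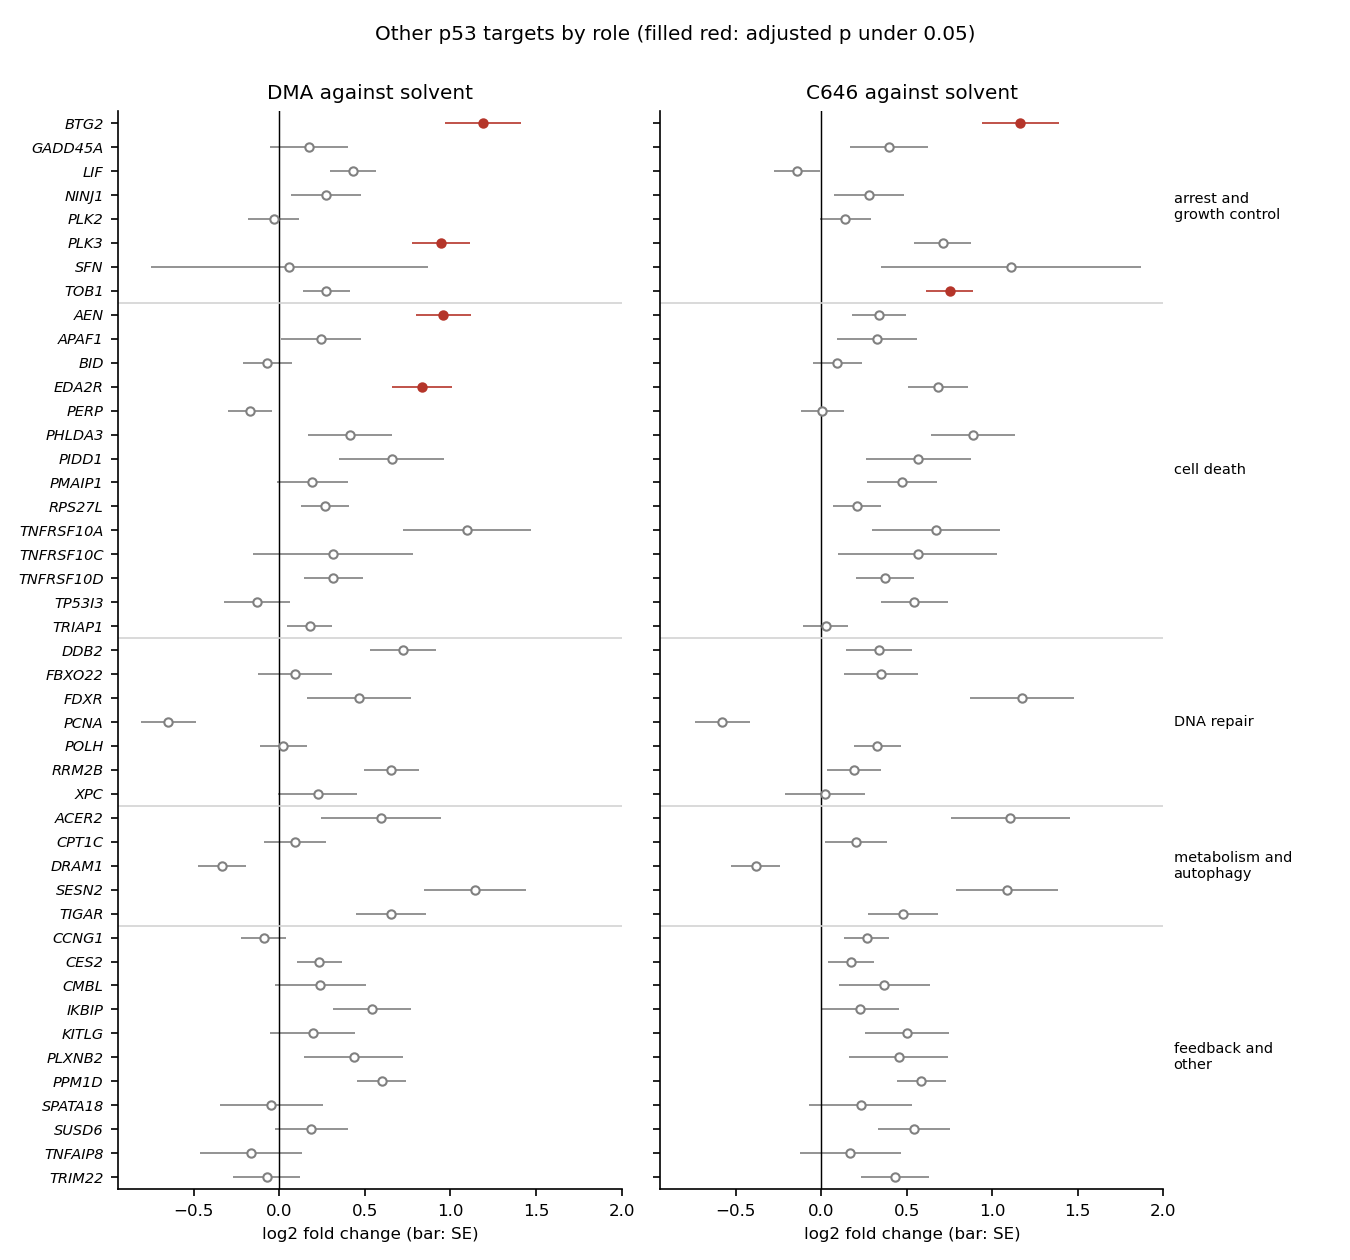
Log2 fold changes (bar: SE) of the 45 other p53 targets tested, grouped by role, for DMA against solvent and C646 against solvent, with filled red points for calls by edgeR. Most points lie to the right of 0, with 4 calls for DMA and 2 for C646.

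Of the 45, 11 rose and 7 fell in solvent against starved cells, against 12.6% and 11.7% of all genes. LIF, a cytokine, rose by 2.46 (edgeR adjusted p = 5.7e-07), TNFRSF10D, a decoy receptor of TRAIL, by 1.64 (5.98e-05) and PCNA, the sliding clamp of DNA replication, by 1.28 (0.000157). TIGAR rose by 1.20 (0.0014), and it is uncertain, since 44.4% of its 31-base stretches are shared with other genes. SESN2, a relative of SESN1 that also answers to ATF4, fell by 2.14 (edgeR adjusted p = 0.000438), EDA2R by 0.96 (0.00196) and CCNG1, cyclin G1, by 0.95 (0.000308). PIDD1 fell by 1.19 (0.0135), a call lost without solvent library 1 (0.0569) or starved library 2 (0.067). With spike-in scaling PIDD1, EDA2R and CCNG1 were -0.52, -0.32 and -0.36 and did not pass. SESN2 measured 59.5, 60.0 and 62.9 CPM in DMA, 55.6, 41.7 and 78.1 CPM in C646, 15.3, 26.0 and 41.4 CPM in solvent, and 140.5, 111 and 112 CPM in starved cells. Like TNFRSF10B, it had all solvent libraries below all others.

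Against starved cells, 23 of the 45 rose and 5 fell with DMA (13.9% and 13% of all genes), and 25 rose and 4 fell with C646 (12.9% and 11.7% of all genes). With DMA the largest rises were LIF (2.89), BTG2 (2.33) and TNFRSF10A (2.00), another TRAIL receptor, and with C646 LIF (2.32), BTG2 (2.31) and ACER2 (2.17), a ceramidase. SFN, which encodes 14-3-3 sigma, was called higher in both, but held 0.134 to 0.475 CPM with DMA, 0.322 to 0.911 CPM with C646 and 0 to 0.0418 CPM in starved cells, so its fold is not given. With DMA that call ended without DMA library 1 or 3, any C646 library, solvent library 2 or any starved library (edgeR adjusted p = 0.05 to 0.157). CCNG1, DRAM1, an autophagy gene, CES2 and SESN2 fell with DMA (-1.04, -0.83, -0.54 and -0.99) and with C646 (-0.69, -0.87, -0.60 and -1.05), but spike-in scaling ended all 8 of these calls. With it the values were -0.21, 0.00, 0.27 and -0.15 with DMA and 0.02, -0.17, 0.11 and -0.31 with C646 (adjusted p from 0.456 to 1). The calls of SESN2 ended without DMA library 1, 2 or 3 (0.0644, 0.0673 and 0.0561) or starved library 1 (0.0805) for DMA, and without C646 library 1 or 2 (0.0699 and 0.0814) or starved library 1 (0.0693) for C646, and with no filter on low counts for both (0.0981 with DMA and 0.0896 with C646). Between DMA and C646, LIF alone of the 45 was called, higher by 0.57 (edgeR adjusted p = 0.036), and leaving out any of those 6 libraries, solvent library 2, starved library 1 or starved library 2 ended it (0.0506 to 0.122), as did spike-in scaling (0.946) and a fit to the compared groups alone (0.0565).

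Of 21 genes of regulators and relatives of p53, 19 were tested. EP300, the gene of p300, rose by 0.63 with DMA against solvent (edgeR adjusted p = 0.0235), a call lost without DMA library 2 (0.118), solvent library 1 (0.11) or solvent library 2 (0.0578), with spike-in scaling (0.429) or in a fit to the compared groups alone (0.0763). It was the single call of the 19, against 0.734% of all genes called higher. For C646 against solvent edgeR called 0 of the 19 (5 at an unadjusted p under 0.05, and 3 called with DESeq2), and for DMA against C646 also 0 (1 at an unadjusted p under 0.05, and 0 with DESeq2). EP300 and CREBBP, the gene of CBP, measured 0.41 and 0.60 with C646 against solvent (edgeR adjusted p = 0.104 and 0.0969), and both passed with the block (0.41 with adjusted p = 0.0313 and 0.59 with adjusted p = 0.0123), but not when solvent library 1 was also left out (0.17 and 0.071). CREBBP measured 0.62 with DMA (adjusted p = 0.0801, 0.60 with adjusted p = 0.0105 with the block, and 0.47 with adjusted p = 0.0561 when solvent library 1 was also left out). MDM4, the partner of MDM2, measured -0.58 with DMA against solvent (adjusted p = 0.165, -0.59 with adjusted p = 0.0237 with the block, and -0.54 with adjusted p = 0.0945 when solvent library 1 was also left out) and -0.17 with C646 (adjusted p = 0.751).

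In solvent against starved cells 3 of the 19 rose and 6 fell, against 12.6% and 11.7% of all genes. MDM4 fell by 0.97 (edgeR adjusted p = 0.00555), CREBBP by 0.84 (0.0036) and EP300 by 0.49 (0.0101), and with spike-in scaling these were -0.36, -0.21 and 0.13 and did not pass. EP300 was not called without starved library 2 (0.053). TP53RK, a kinase of p53, rose by 0.64 (0.00417) and HIPK2, a kinase that activates p53 for cell death, by 0.59 (0.0247). The call of HIPK2 ended without solvent library 2 or 3 (0.0725 and 0.0515) or starved library 2 or 3 (0.0741 and 0.0732). HIPK2 also rose with DMA (0.81, adjusted p = 0.00406) and with C646 (1.14, adjusted p = 0.000555) against starved cells, where MDM4 fell (-1.55 with DMA and -1.14 with C646, adjusted p = 0.000308 and 0.00223). Spike-in scaling ended both calls of MDM4 (-0.73 with DMA and -0.40 with C646, adjusted p = 0.0841 and 0.363). In those comparisons 4 of the 19 rose and 3 fell with DMA (13.9% and 13% of all genes), and 2 rose and 3 fell with C646 (12.9% and 11.7% of all genes).

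The 7 genes of the integrated stress response, the programme run by ATF4 (ATF4, DDIT3, ATF3, TRIB3, CHAC1, ASNS and PPP1R15A), were set beside GDF15, TNFRSF10B, SESN1 and BBC3. All 7 fell in solvent against starved cells with TMM scaling (11.7% of all genes). Spike-in scaling moved the median log2 value of all genes in that comparison to 0.60, so these falls are relative to the other genes. In DMA against solvent edgeR called 0 of 7 (1 at an unadjusted p under 0.05, and 1 with DESeq2). For C646 against solvent it also called 0 of 7 (2 at an unadjusted p under 0.05, and 0 with DESeq2). DDIT3 measured 4.97, 9.29 and 8.46 CPM in the DMA libraries, 5.51, 7.01 and 11.7 CPM in the C646 libraries, 4.39, 7.12 and 6.20 CPM in the solvent libraries, and 227, 264 and 311 CPM in the starved libraries. The starved libraries stood far above the 3 stimulated groups, which overlapped. ATF4 measured 268, 332.5 and 371 CPM with DMA, 262, 292 and 456 CPM with C646, 204, 245 and 307 CPM with solvent, and 918, 868 and 993.5 CPM in starved cells. DDIT3 fell by 5.50 and ATF4 by 1.88 in solvent against starved cells (edgeR adjusted p = 1.52e-06 and 8.8e-05). Against solvent the values were 0.37 and 0.36 with DMA and 0.45 and 0.42 with C646 (adjusted p from 0.318 to 0.536). Both are uncertain, since 39.6% of the exonic bases of DDIT3 overlap other genes and 29.7% of the 31-base stretches of ATF4 are shared with other genes. ASNS is uncertain too, with 42.5% of its 31-base stretches shared and 44.6% of its exonic bases overlapping another gene. The part of ATF4 and DDIT3 in the levels of BBC3 and TNFRSF10B was not tested.

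Over the 12 libraries, the genes whose pattern was most like that of CDKN1A were TRAF4, PRAG1, HLX, RBM38 and NAB2, with root mean square differences of 0.256, 0.280, 0.301, 0.345 and 0.357 in centred log2 CPM, among 10964 genes ranked. TRAF4 measured 97.3 ± 6.70 CPM in DMA, 109.6 ± 23.3 CPM in C646, 55.3 ± 14.2 CPM in solvent and 32.3 ± 5.68 CPM in starved cells (SD, n = 3). Of the other 9 genes, SESN1 ranked 8 (0.372), MDM2 15 (0.414), FAS 107, TP53INP1 157, ZMAT3 221, BAX 711, TNFRSF10B 811 and BBC3 7639. GDF15 was below the level needed for ranking.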

How the data were processed

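Poly-A RNA libraries of 12 samples of RPE-1 cells were sequenced, 3 in each of 4 groups taken from the labels. Per the submitters' processing notes, Trimmomatic 0.36, STAR 2.7.0e and GRCh38.p10 were used. How transcripts were quantified, against which annotation and with which strand option is not given in the sources used here. Deposited files hold, per the file headers, expected counts and TPM for 182164 transcripts, of which 181808 matched GENCODE 29, 92 were spike-in controls (0.527 to 1.28% of counts, not described in the labels) and 264 were unmatched (0.0923 to 0.146% of counts).

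Expected counts were summed per gene (43481 genes), rounded, and tested with edgeR 4.0.16 (R 4.3.3): filterByExpr (minimum 10 and total 15), TMM scaling, robust quasi-likelihood F-test, 1 fit over the 12 libraries, Benjamini-Hochberg adjustment over 15263 genes, threshold 0.05. CPM used TMM-scaled library sizes, and the TPM values are the submitters' own. Intervals are 95%. The fit was tested on simulated counts drawn independently for each library. These lack the shared deviation of same-numbered libraries described below, so the effect of that deviation on the calls was not tested by them. DESeq2 1.42.0, DESeq2 size factors, spike-in scaling, no filter, a stricter filter (1 CPM), the compared groups alone, a replicate block and leaving out each library were alternatives. Replicates correlated at 0.9727 to 0.9851, and no pair was identical.

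Same-numbered libraries deviated together, with correlations of 0.331 to 0.475 for DMA and solvent, 0.284 to 0.379 for C646 and solvent, 0.276 to 0.483 for DMA and C646, 0.128 to 0.305 for DMA and starved, and 0.153 to 0.365 for C646 and starved. For solvent and starved they were 0.096 to 0.33, the lowest below the limit for pairing, while libraries of different numbers reached at most 0.063. The pairing comes from these correlations and not from the labels.

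The p53 consensus was planned over 2500 bases each side of a start and was searched in the RefSeq windows of 300 bases instead, since no genome was used here. Genes are called uncertain where at least 20% of their 31-base sequences or exonic bases are shared with another gene. The 10 genes and the other lists were chosen with earlier results of these data known. From the other lists, all calls were counted, and at most 4 genes per direction with the largest changes were named, besides MDM4, PPM1D, EP300, CREBBP, ATF4 and DDIT3. BTG2 and SESN2 levels were chosen after their values were seen. Likeness to CDKN1A was ranked over genes with a mean log2 CPM of at least 2. Some genes that this rule picked are not reported here.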

Additional observations from a re-analysis of the deposited data

How the results depend on the processing

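Of the values of the 10 genes under the alternatives that kept all libraries (or left one out only with the block), 417 kept their sign and their side of the threshold, 35 came to pass, 15 no longer passed and 6 turned sign. With 1 library left out these numbers were 648, 8, 49 and 15. Of 23 calls, 12 held without each library of the compared groups in turn. Most of these were calls of an inhibitor against starved cells (5 of 5 with DMA and 5 of 6 with C646). For solvent against starved cells 1 of 5 held. Against solvent 0 of 2 held with DMA and 1 of 4 with C646, and for DMA against C646 0 of 1 held. The cause of the changes was not tested.

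The count of the 10 genes called with DMA against solvent was 2 and was 0 to 4 with 1 library left out, 4 with DESeq2 and 5 with the replicate block (2 without solvent library 1). The 0 came without DMA library 2, solvent library 1 or solvent library 2, where 6, 5 and 4 genes had an unadjusted edgeR p under 0.05. For C646 against solvent it was 4, with 1 to 5 when 1 library was left out, 2 with spike-in scaling, 1 with the compared groups alone and 6 with the replicate block (3 without solvent library 1). For DMA against C646 it was 1, with 0 to 2 when 1 library was left out, 3 with DESeq2, 3 with the replicate block (all lower), 3 with the block and without solvent library 1 (2 lower and 1 higher, with TNFRSF10B in place of MDM2), 0 with spike-in scaling (2 at an unadjusted edgeR p under 0.05) and 0 with the compared groups alone (5). For solvent against starved cells it was 5, with 2 to 5 when 1 library was left out and 3 with no filter. For DMA against starved cells it was 5, with 5 to 6 when 1 library was left out and 9 with spike-in scaling. For C646 against starved cells it was 6, with 5 to 6 when 1 library was left out.

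The count of the other targets called with DMA against solvent was 4, with 0 to 5 when 1 library was left out, 11 with DESeq2, 2 with spike-in scaling, 7 with the stricter filter, 2 with the compared groups alone, and 13 with the replicate block (9 without solvent library 1). For C646 against solvent it was 2, with 0 to 2 when 1 library was left out, 10 with DESeq2, 6 with no filter, 10 with the replicate block (2 without solvent library 1), 0 with spike-in scaling (10 at an unadjusted edgeR p under 0.05) and 0 with the compared groups alone (17). For DMA against C646 it was 1, with 0 to 2 when 1 library was left out, 4 with DESeq2, 2 with DESeq2 size factors, 3 with no filter, 2 with the stricter filter, 7 with the replicate block (8 without solvent library 1), 0 with spike-in scaling (1 at an unadjusted edgeR p under 0.05) and 0 with the compared groups alone (9). For solvent against starved cells it was 18, with 12 to 22 when 1 library was left out and 28 with the replicate block (28 also without solvent library 1). For DMA and C646 against starved cells it was 28 and 29, with 21 to 29 and 25 to 29 when 1 library was left out.

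Over all genes the count for DMA against solvent was 267, with 1 to 309 when 1 library was left out, 1096 with DESeq2, 91 with spike-in scaling, 455 with no filter, 31 with the compared groups alone and 1560 with the replicate block (471 without solvent library 1). For C646 against solvent it was 185, with 24 to 193 when 1 library was left out, 891 with DESeq2, 100 with spike-in scaling, 348 with no filter, 71 with the compared groups alone and 1199 with the replicate block (321 without solvent library 1). For DMA against C646 it was 441, with 180 to 417 when 1 library was left out, 1055 with DESeq2, 120 with spike-in scaling, 140 with the compared groups alone and 1498 with the replicate block (1627 without solvent library 1). For solvent against starved cells it was 3704, with 2269 to 3895 when 1 library was left out. For DMA against starved cells it was 4109, with 3009 to 4307 when 1 library was left out, 6574 with spike-in scaling and 6204 with the replicate block and without solvent library 1. For C646 against starved cells it was 3749, with 2514 to 3870 when 1 library was left out and 5796 with the replicate block and without solvent library 1. The share of higher calls with spike-in scaling was 93.4%, 84%, 44.2%, 94.5%, 97.9% and 97.6% in these 6 comparisons in the same order, against 41.9%, 67%, 32.7%, 51.9%, 51.7% and 52.5% with TMM scaling.

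These log2 values turned sign. With the replicate block and without solvent library 1, FAS was -0.054 with DMA against solvent and TP53INP1 was 0.12 in solvent against starved cells. With no filter, PPM1D was -0.001 and CREBBP 0.00 for DMA against C646. With spike-in scaling, ATF4 was 0.034 and DDIT3 0.013 for DMA against C646, and TNFRSF10B was 0.042, TP53INP1 0.56 and EP300 0.13 in solvent against starved cells. With the same scaling for DMA against starved cells, DRAM1 was 0.00, CES2 0.27, SIRT1 0.24, KAT5 0.24 and CREBBP 0.57. For C646 against starved cells, TNFRSF10B was 0.68, BBC3 0.26, CCNG1 0.021, CES2 0.11, ATM 0.13, KAT5 0.20, EP300 0.63 and CREBBP 0.47. With 1 library left out, FAS with DMA against solvent ran between -0.033 and 0.13. For DMA against C646 the ranges were -0.16 to 0.23 for SESN1, -0.30 to 0.067 for BAX, -0.029 to 0.31 for ZMAT3, -0.08 to 0.092 for PPM1D, -0.10 to 0.16 for CREBBP, -0.21 to 0.22 for ATF4 and -0.29 to 0.28 for DDIT3. For solvent against starved cells they were -0.051 to 0.33 for CDKN1A, -0.048 to 0.19 for BAX, -0.14 to 0.088 for TP53INP1 and -0.035 to 0.12 for PPM1D. GDF15 ran between -0.062 and 0.27 with DMA against starved cells, and with C646 against starved cells TNFRSF10B ran between -0.20 and 0.15 and EP300 between -0.14 and 0.002.

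For solvent and starved cells the libraries were not taken as paired (lowest correlation of the same number 0.096). With the replicate block ZMAT3 was 0.34 (edgeR adjusted p = 0.0337) and GDF15 -1.86 (adjusted p = 0.023) there. Depth limits GDF15 most, with 2 reads in each of solvent libraries 1 and 2.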
